A study of Mus musculus with 12 samples.

Results

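The integrated stress response genes described here are 32 mouse genes of the ATF4 programme, read in primary hepatocytes, the metabolic cells of the liver, by RNA sequencing. They were chosen by name, through the symbols paired with the Ensembl identifiers of the count table, and 33 of its 55414 rows carried one of the 32 symbols. The additional row was another identifier of Ddit3 (ENSMUSG00000116429), which held 0 counts in every library and was not used. All 32 genes passed the filter on low counts, among 14919 genes tested. The study had 4 groups of 3 libraries: Hnf4a KO cells with MJ041, Hnf4a KO cells with DMSO vehicle, WT cells with MJ041, and WT cells with DMSO vehicle. All came from liver, and MJ041, a code name, is a candidate ligand in this study. The dose, the time of treatment, and the strain, age and sex of the mice are not given in the sources used here, nor is the way the knockout was made. Nothing in the labels says that replicates came from separate animals or cultures, so the p-values below measure only the spread between these libraries.

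In the integrated stress response, kinases that sense viral RNA, misfolded protein, missing haem or missing amino acids phosphorylate the translation factor eIF2. General protein synthesis then slows while the mRNA of the transcription factor ATF4 is translated more, so the Atf4 mRNA level alone does not report ATF4 activity. ATF4, often paired with a C/EBP protein, raises genes that make, import and recycle amino acids, and in the liver it also drives secreted hormones such as FGF21.

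Libraries held between 16740761 and 17902832 counts. Levels are given as CPM, counts scaled to a common library total after TMM correction for composition, and they are compared only between libraries of the same gene. Hnf4a itself (ENSMUSG00000017950) had 61.1, 67.8 and 66.4 CPM in KO libraries with vehicle, against 121, 137 and 112 CPM in WT libraries with vehicle, so transcripts counted to the targeted gene were lower but present. The summed level of 8 hepatocyte markers lay between 27260 and 31550 CPM in KO libraries with vehicle, against 56010 to 61540 CPM in WT libraries with vehicle. Most of that sum was albumin, and the 8 markers went both ways in KO cells: 4 were lower, 2 (Ambp and Serpinc1) were higher and 2 (Fga and Ahsg) were not called. In such bulk libraries, fewer cells of a type and less RNA per cell cannot be told apart. Markers of other liver cells were present in each library (12 of 12 Kupffer, 12 of 12 endothelial and 12 of 15 stellate markers passed the filter).

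The first comparison asked how the stress response genes differed between KO and WT cells under vehicle. Of the 32, 17 were lower and 8 higher in KO cells (edgeR's quasi-likelihood test, Benjamini-Hochberg adjusted p below 0.05 over all genes tested). The lower genes included Atf4, asparagine synthetase, the mitochondrial folate enzyme Mthfd2 and 5 of 6 amino acid transporters, and the higher genes included Ddit3, Aldh1l2 and Vldlr. Genotype changed much of the transcriptome: 54.5% of all tested genes were called, 27.5% as higher and 26.9% as lower. Against that background 53.1% of the 32 were lower and 25% were higher. Their median log2 fold change was -0.31, beside -0.002 over all genes tested.

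Among the regulators, all 7 passed the test, 5 as lower and 2 as higher. Atf4 (ENSMUSG00000042406) had 211, 211 and 211 CPM in KO libraries with vehicle, against 309, 332 and 324 CPM in WT libraries with vehicle. The KO values were nearly identical and lay below all WT values, a log2 fold change of -0.61 ± 0.06 (SE, n = 3 libraries per group; adjusted p = 1.5e-06). Atf5 (ENSMUSG00000038539), a close relative of ATF4 that is also translated under stress, had 325, 312 and 312 CPM in KO cells, against 445, 472 and 423 CPM in WT cells. It was lower in each KO library, by -0.50 ± 0.08 on the log2 scale. Trib3 (ENSMUSG00000032715), a pseudokinase induced by ATF4 that restrains the response, had 66.3, 60.2 and 63.9 CPM in KO cells, against 95.9, 113 and 98.2 CPM in WT cells. The groups did not overlap, and the log2 fold change was -0.69 ± 0.10.

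Ddit3 (ENSMUSG00000025408), which encodes CHOP, the factor linked to cell death after prolonged stress, went the other way. It had 130.1, 64.5 and 89.7 CPM in KO libraries with vehicle, against 35.1, 33.9 and 28.4 CPM in WT libraries with vehicle. All KO values were above the WT values but differed among themselves, and the log2 fold change was 1.55 ± 0.25 (adjusted p = 0.00016). Nupr1 (ENSMUSG00000030717), a small stress-induced chromatin protein, had 36.7, 27.1 and 34.9 CPM in KO cells, against 16.7, 16.8 and 21.1 CPM in WT cells, and rose by 0.85 ± 0.13 on the log2 scale without overlap. The partner factors fell: Cebpb averaged 49.3 ± 3.38 CPM in KO cells and 75.2 ± 3.52 CPM in WT cells (SD, n = 3 each), and Cebpg 95.3 ± 2.06 CPM in KO cells and 118 ± 6.38 CPM in WT cells. Both passed (adjusted p = 0.00036 for Cebpb and 0.0018 for Cebpg).

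Of the 5 feedback and growth genes, 4 were lower in KO cells. Ppp1r15a (ENSMUSG00000040435), the GADD34 subunit that directs dephosphorylation of eIF2 and so ends the response, had 88.8, 80.6 and 89.9 CPM in KO cells, against 148, 159 and 176 CPM in WT cells, a log2 fold change of -0.90 ± 0.10. Chac1 (ENSMUSG00000027313), which degrades glutathione, had 30.4, 25.5 and 30.4 CPM in KO cells, against 33.0, 43.7 and 47.5 CPM in WT cells. Its KO libraries all lay below WT, though the lowest WT library came close, and the log2 fold change was -0.53 ± 0.14 (adjusted p = 0.0055). Sesn2 (ENSMUSG00000028893), a leucine sensor that holds mTORC1 in check, had 57.1, 55.2 and 56.8 CPM in KO cells, against 86.2, 77.3 and 79.8 CPM in WT cells. Its change of -0.53 ± 0.07 was about the size of that of Chac1, with tighter libraries. Eif4ebp1, a repressor of cap-dependent translation, fell as well, to 206 ± 14.4 CPM in KO cells against 280.1 ± 17.8 CPM in WT cells. Ddit4, an mTORC1 inhibitor, did not pass, at 36.3 to 55.7 CPM in KO cells and 43.8 to 77.1 CPM in WT cells.

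The 7 genes of serine synthesis and mitochondrial one-carbon metabolism split, with 2 lower, 3 higher and 2 not called. Mthfd2 (ENSMUSG00000005667), the mitochondrial methylene-tetrahydrofolate dehydrogenase, had 27.2, 28.7 and 28.3 CPM in KO libraries with vehicle, against 53.4, 56.7 and 57.1 CPM in WT libraries with vehicle. Replicates were tight on both sides, and the log2 fold change was -0.99 ± 0.06 (adjusted p = 8.4e-08). Aldh1l2 (ENSMUSG00000020256), the mitochondrial formyl-tetrahydrofolate dehydrogenase that acts further along the same folate pathway, had 117, 53.4 and 78.4 CPM in KO cells, against 11.0, 11.6 and 8.50 CPM in WT cells. This was the largest change of the 32, 3.01 ± 0.29 on the log2 scale, with KO libraries differing among themselves by more than the whole WT level.

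The 3 enzymes that make serine did not move together. Phgdh (ENSMUSG00000053398), which catalyses the first step, had 22.6, 16.6 and 20.1 CPM in KO cells, against 14.9, 13.6 and 14.5 CPM in WT cells, a rise of 0.47 ± 0.15 on the log2 scale (adjusted p = 0.019). That call was lost without KO vehicle library 1 or 3, and without WT vehicle library 2 or 3. Psat1 (ENSMUSG00000024640), the aminotransferase of the next step, had 161, 158 and 149 CPM in KO cells, against 189.7, 202 and 192 CPM in WT cells, and fell by 0.32 ± 0.06 on the log2 scale. Psph, the phosphatase of the last step, was higher at 31.1 ± 0.857 CPM in KO cells against 24.9 ± 1.41 CPM in WT cells (log2 fold change 0.32 ± 0.07). Shmt2, which turns serine into glycine in mitochondria, averaged 143 ± 23.6 CPM in KO cells and 147 ± 23.9 CPM in WT cells, and Mthfd1l, the mitochondrial formate-releasing enzyme, averaged 71.7 ± 6.05 CPM in KO cells and 67.5 ± 4.11 CPM in WT cells. Neither passed.

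Asns (ENSMUSG00000029752), which makes asparagine and is a classical ATF4 target, had 44.6, 47.7 and 47.5 CPM in KO libraries with vehicle, against 104, 99.0 and 102 CPM in WT libraries with vehicle. Its log2 fold change of -1.12 ± 0.05 had the smallest adjusted p of the 32 (2.9e-09) and was the largest fall. Pck2 (ENSMUSG00000040618), the mitochondrial phosphoenolpyruvate carboxykinase, had 42.6, 30.2 and 41.5 CPM in KO cells, against 23.1, 23.5 and 23.2 CPM in WT cells. It rose by 0.71 ± 0.14 on the log2 scale, with all KO values above WT. Aldh18a1, which starts proline synthesis from glutamate, averaged 44.3 ± 6.12 CPM in KO cells and 40.3 ± 1.81 CPM in WT cells and did not pass.

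Of the 6 amino acid transporters, 5 were lower and 1 was higher. Slc3a2 (ENSMUSG00000010095), the heavy chain shared by several exchangers, had 366, 343 and 349 CPM in KO cells, against 664, 660.2 and 621 CPM in WT cells, a log2 fold change of -0.88 ± 0.06. Slc38a2 (ENSMUSG00000022462), the sodium-coupled SNAT2 carrier, had 216, 218 and 209 CPM in KO cells, against 316, 318 and 339 CPM in WT cells, a change of -0.60 ± 0.05. Both were lower in every KO library. The cystine importer Slc7a11 (-0.53 ± 0.07), the large neutral amino acid carrier Slc7a5 (-0.49 ± 0.10) and the cationic carrier Slc7a1 (-0.45 ± 0.08) fell too. Slc1a4 (ENSMUSG00000020142), the ASCT1 exchanger of alanine and serine, had 62.9, 89.6 and 69.2 CPM in KO cells, against 26.8, 30.0 and 24.4 CPM in WT cells. It rose by 1.45 ± 0.13 on the log2 scale (adjusted p = 1.4e-06), without overlap.

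Of the 4 secreted or surface proteins, 1 passed. Vldlr (ENSMUSG00000024924), a lipoprotein receptor that ATF4 induces in hepatocytes, had 53.6, 83.4 and 86.7 CPM in KO libraries with vehicle, against 10.2, 22.4 and 22.2 CPM in WT libraries with vehicle. The log2 fold change was 2.03 ± 0.33 (adjusted p = 0.00019), with scattered but separate groups. The hormones did not pass: Fgf21 averaged 15.5 ± 2.30 CPM in KO cells and 14.8 ± 5.96 CPM in WT cells, and Gdf15 76.3 ± 8.44 CPM in KO cells and 75.2 ± 3.46 CPM in WT cells. Their 95% intervals ran from -0.58 to 0.71 (Fgf21) and from -0.23 to 0.27 (Gdf15) on the log2 scale. Stc2, a secreted stanniocalcin, was close to absent, with 28 counts over the 3 KO libraries with vehicle and 24 over the 3 WT libraries with vehicle.

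**Figure D1:**
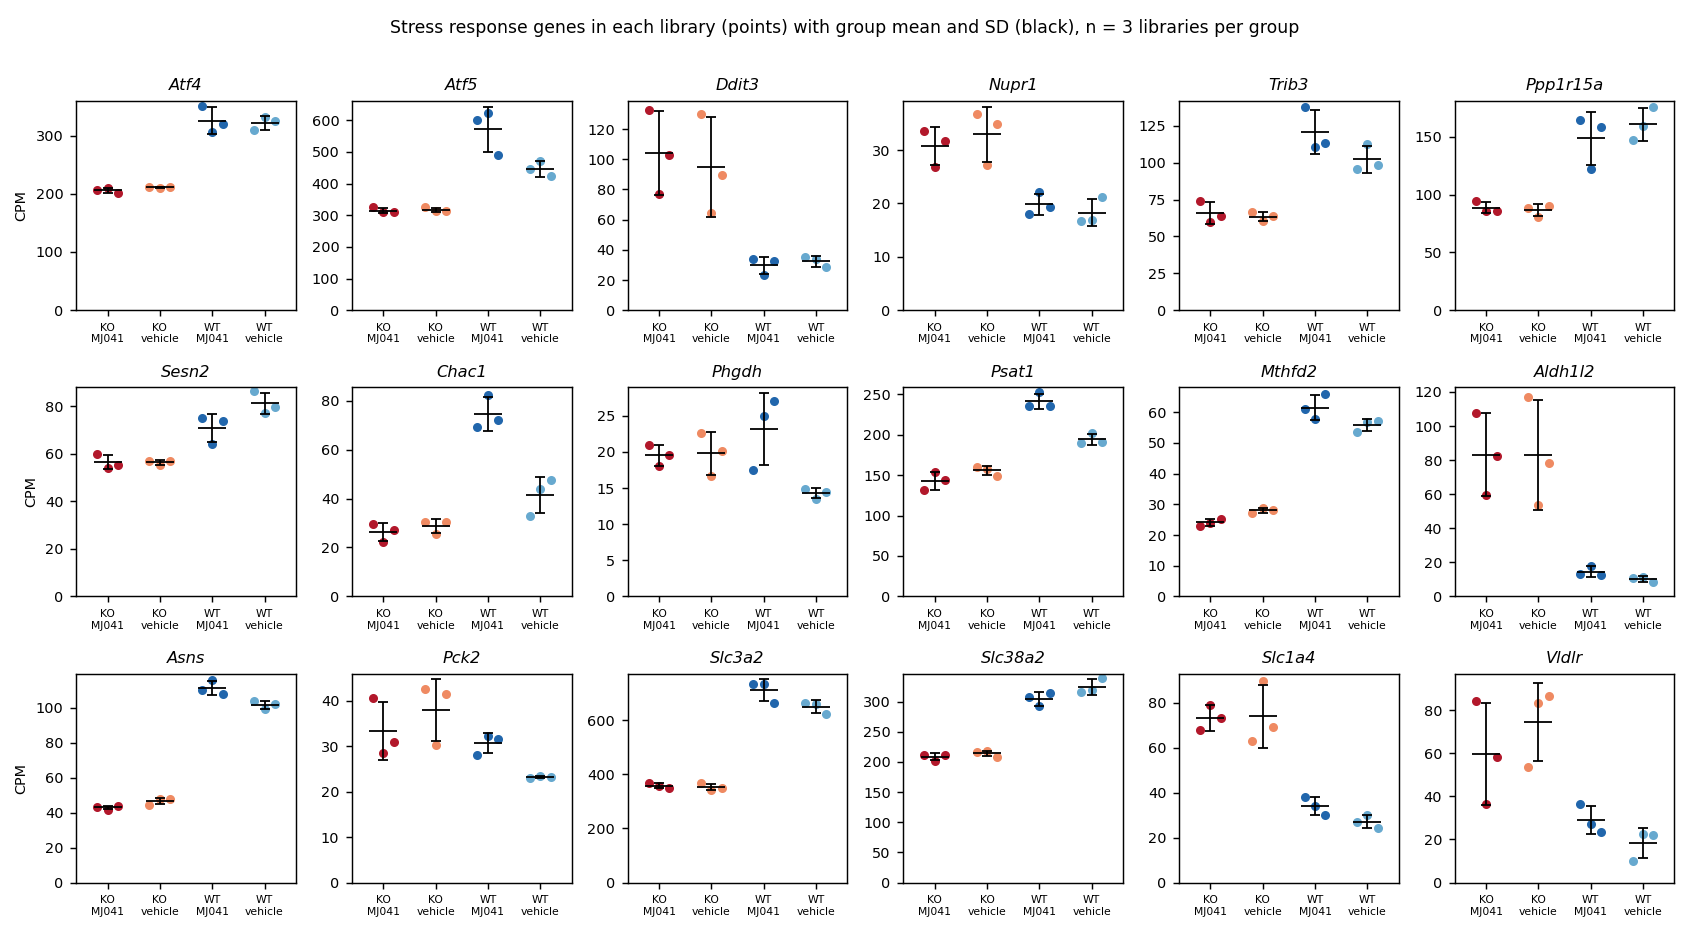
Level in CPM (linear axis from 0) of 18 stress response genes in each of the 12 libraries, as points by group, with the mean and SD of 3 libraries in black. Atf4 is near 211 CPM in the KO libraries with vehicle and between 309 and 332 CPM in the WT ones, while Aldh1l2, Ddit3, Slc1a4 and Vldlr are higher in KO libraries.

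Binding elements for ATF4 with a C/EBP partner were looked for in the promoters, to see whether the genes of either direction carry them. Of the 32 genes, 29 had a promoter in the RefSeq table (build GRCm38.p6, not the build of the counts), and Eif4ebp1, Aldh1l2 and Slc7a5 had no entry. The letters searched were TGATGNAA on both strands, in the 250 bases before each annotated start. A gene with 2 starts counted if either window held them. They occurred in 7 of the 29 genes, and in 3.91% of all 27025 genes with a promoter in the table. The 7 held genes lower in KO cells (Asns, Chac1 and Slc7a11), genes higher in KO cells (Nupr1, Pck2 and Vldlr) and Fgf21, which was not called. The letters CAAAGTCCA, the core of an HNF4 element, on both strands, were found in 0 of the 29 genes and in 0.451% of all genes. With so rare a match, 0 of 29 does not set these genes apart from all genes. A match is a run of letters and not a shown binding site. The sequences of 5 of these genes are printed 5′ to 3′ on the strand of the gene, with the element in capitals. They lie at chr6:7693210-7693459 (minus strand, Asns), chr7:126625471-126625720 (minus strand, Nupr1), chr19:27216770-27217019 (plus strand, Vldlr), chr14:55540016-55540265 (plus strand, Pck2) and chr2:119350992-119351241 (plus strand, Chac1) of GRCm38.p6.
Asns: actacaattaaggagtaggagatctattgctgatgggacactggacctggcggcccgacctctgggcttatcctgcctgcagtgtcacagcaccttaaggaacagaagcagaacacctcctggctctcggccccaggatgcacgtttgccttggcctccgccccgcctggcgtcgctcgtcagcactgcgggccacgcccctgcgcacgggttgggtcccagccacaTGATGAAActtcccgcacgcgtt
Nupr1: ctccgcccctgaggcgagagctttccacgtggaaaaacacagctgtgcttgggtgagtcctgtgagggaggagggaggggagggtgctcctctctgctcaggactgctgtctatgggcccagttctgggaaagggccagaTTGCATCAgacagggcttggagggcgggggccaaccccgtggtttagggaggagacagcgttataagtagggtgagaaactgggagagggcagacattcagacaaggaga
Vldlr: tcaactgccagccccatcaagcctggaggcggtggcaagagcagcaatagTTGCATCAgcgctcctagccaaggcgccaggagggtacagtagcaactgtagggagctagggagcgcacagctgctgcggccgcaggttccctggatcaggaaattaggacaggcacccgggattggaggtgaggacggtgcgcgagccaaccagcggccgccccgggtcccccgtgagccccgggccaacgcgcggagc
Pck2: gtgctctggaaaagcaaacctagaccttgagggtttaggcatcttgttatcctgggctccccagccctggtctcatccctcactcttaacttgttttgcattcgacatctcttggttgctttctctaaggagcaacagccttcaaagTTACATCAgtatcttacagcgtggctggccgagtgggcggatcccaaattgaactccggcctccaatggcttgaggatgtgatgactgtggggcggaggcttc
Chac1: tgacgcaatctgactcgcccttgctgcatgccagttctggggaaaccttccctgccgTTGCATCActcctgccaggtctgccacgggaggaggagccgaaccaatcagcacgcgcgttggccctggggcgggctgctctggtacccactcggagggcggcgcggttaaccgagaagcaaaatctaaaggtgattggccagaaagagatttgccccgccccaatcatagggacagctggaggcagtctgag

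The element of Asns starts 23 bases before the annotated start, in the same orientation as the gene, and those of Nupr1, Pck2, Chac1 and Vldlr start 110, 103, 193 and 200 bases before it in the opposite orientation. Nupr1, Vldlr and Chac1 share the 8 letters TTGCATCA, although Nupr1 and Vldlr were higher in KO cells and Chac1 lower.

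**Figure D2:**
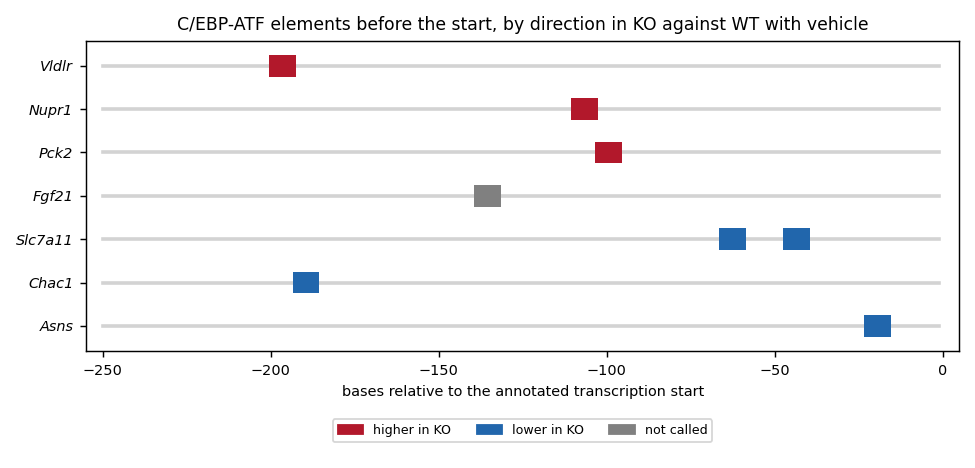
Position of each C/EBP-ATF element (coloured block) within the 250 bases before the annotated start (x axis, bases relative to the start) of the 7 genes that hold one, red for genes higher and blue for genes lower in KO against WT cells with vehicle. Elements of red genes and of blue genes are both found, Slc7a11 holds 2, and Fgf21, which was not called, is grey. Vldlr has 2 annotated starts, and the one shown is the one with an element.

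The same question was asked of KO and WT cells that had both received MJ041, which are other libraries than those above. There 20 of the 32 genes were lower and 5 higher in KO cells (62.5% and 15.6%), against 27.6% lower and 26.8% higher among all genes tested, of which 54.4% were called. The median log2 fold change of the 32 was -0.36, beside 0.02 over all genes. Of the 32, 17 were lower in both comparisons and 5 were higher in both (Ddit3, Nupr1, Aldh1l2, Slc1a4 and Vldlr). None were called in opposite directions, and 28 had the same sign. Both comparisons come from 1 fit, and the labels do not say whether cells of the 2 treatments came from different animals. Their likeness is thus not shown to be an independent repeat. Summed markers of stellate and Kupffer cells were higher in KO libraries here. The stellate markers summed to 172.5 to 199 CPM in KO libraries with MJ041 and to 95.2 to 156 CPM in WT libraries with MJ041. The Kupffer markers summed to 475 to 504 CPM in KO and 186 to 362 CPM in WT. A single gene, Mpeg1, can make up most of that sum. In KO libraries with vehicle it averaged 281 CPM, where the Kupffer sum was 462 to 516 CPM. Of 12 stellate markers tested, 6 were called higher and 0 lower. Of 12 Kupffer markers, 3 were called higher and 1 lower. That is 25% higher, no more than the 26.8% of all genes, against 50% of the stellate markers. In the mean of their log2 CPM, the Kupffer markers overlapped (3.69 to 3.89 in KO, 1.39 to 3.77 in WT). The part of these cells in the genotype difference was not tested. Without WT MJ041 libraries 1 and 2, an alternative chosen after seeing the data, 16 of the 20 lower genes and 4 of the 5 higher genes were called again, and Phgdh was called in addition.

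Asns had 43.0, 41.8 and 44.0 CPM in KO libraries with MJ041, against 110.1, 116 and 108 CPM in WT libraries with MJ041, and fell by 1.37 ± 0.05 on the log2 scale (adjusted p = 4.6e-10). Chac1 had 29.6, 22.3 and 27.1 CPM in KO cells, against 69.1, 82.4 and 72.0 CPM in WT cells. Its log2 fold change of -1.50 ± 0.14 was the largest fall of the 32 under MJ041. Atf4 itself had 206, 210.2 and 202 CPM in KO cells, against 351, 306 and 319.6 CPM in WT cells (-0.66 ± 0.06). Mthfd2 fell to 24.1 ± 1.12 CPM in KO cells, against 61.5 ± 4.15 CPM in WT cells, and Slc3a2 to 357 ± 9.78 CPM against 709.5 ± 41.1 CPM in WT cells (SD, n = 3 each). Each of these falls was free of overlap.

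Aldh1l2 had 108, 59.7 and 82.2 CPM in KO libraries with MJ041, against 13.2, 18.0 and 12.6 CPM in WT libraries with MJ041, a log2 fold change of 2.51 ± 0.29. Ddit3 had 133, 76.8 and 103 CPM in KO cells, against 33.6, 23.3 and 32.4 CPM in WT cells (1.81 ± 0.25). Slc1a4 had 67.7, 79.0 and 73.0 CPM in KO cells, against 38.0, 33.9 and 30.0 CPM in WT cells (1.11 ± 0.13). In each of these 3 genes the lowest KO library stood above the highest WT library. Vldlr had 84.2, 36.6 and 58.1 CPM in KO cells, against 36.4, 27.2 and 23.7 CPM in WT cells, where the lowest KO and highest WT values nearly met (1.04 ± 0.32; adjusted p = 0.015). The Vldlr call was lost without KO MJ041 library 1, WT MJ041 library 2 or WT MJ041 library 3, and also without WT MJ041 libraries 1 and 2 together.

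Pck2 (0.12 ± 0.14), Psph (0.02 ± 0.07) and Phgdh (-0.25 ± 0.15) were higher in KO cells with vehicle and were not called with MJ041. That change of call is not itself a shown difference: the interaction of genotype and MJ041 was -0.59 ± 0.20 for Pck2, -0.30 ± 0.10 for Psph and -0.71 ± 0.21 for Phgdh, with adjusted p of 0.23, 0.22 and 0.20. Shmt2 (-0.51 ± 0.15), Mthfd1l (-0.17 ± 0.06) and Fgf21 (-0.75 ± 0.30) were called as lower with MJ041 and not with vehicle. Their interactions did not pass either, at -0.47 ± 0.22 for Shmt2, -0.25 ± 0.09 for Mthfd1l and -0.81 ± 0.42 for Fgf21 (adjusted p = 0.38, 0.26 and 0.43). For Fgf21 the groups overlapped, at 8.93 to 20.5 CPM in KO cells and 18.7 to 28.1 CPM in WT cells, and its adjusted p was 0.048. The Fgf21 and Mthfd1l calls were each lost in 8 of 20 alternative fits. The Shmt2 call was lost with the marker covariate, without WT MJ041 library 1, and without WT MJ041 libraries 1 and 2.

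**Figure D3:**
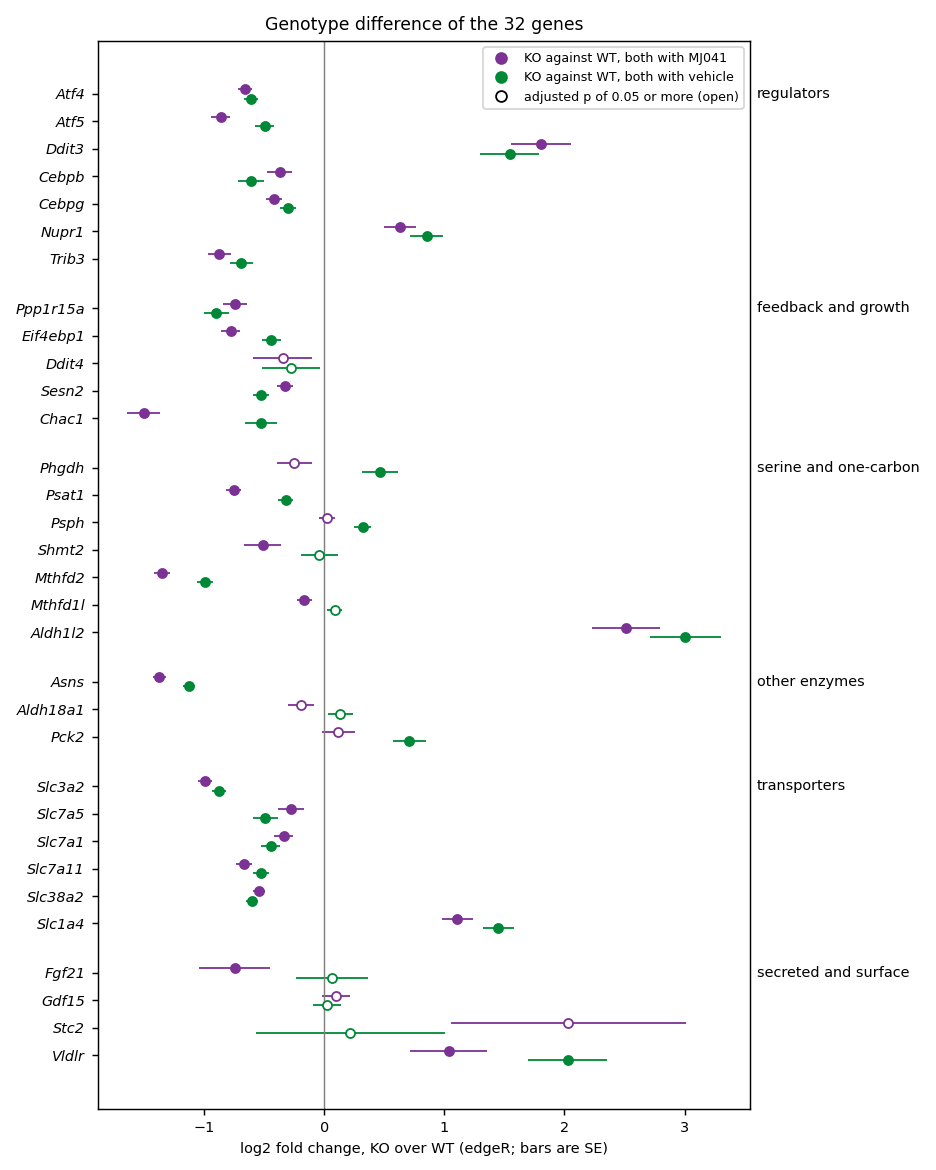
Log2 fold change (x axis) of KO over WT cells for the 32 genes by role, with MJ041 in purple and with vehicle in green, bars giving the SE and open points an adjusted p of 0.05 or more. Most points of the regulators, feedback genes and transporters lie left of 0 in both colours, while Ddit3, Nupr1, Aldh1l2, Slc1a4 and Vldlr lie right of it.

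The libraries of one KO group were not alike for several of these genes. Ddit3 and Aldh1l2 were highest in library 1 and lowest in library 2 in KO cells with MJ041 and again in KO cells with vehicle, and the same held for 10 of the 32 genes, among them Nupr1, Trib3, Phgdh and Pck2. The reverse, library 2 highest and library 1 lowest in both, held for 5 genes, among them Slc1a4 and Gdf15. How many of all genes had either order was not counted, so the order is not shown as particular to the 32. Over all genes tested, deviations from the group mean were correlated between the KO libraries numbered 1 (0.349) and between those numbered 2 (0.458). Markers of other cells also differed between the libraries numbered 1 and 2. With MJ041 and with vehicle, endothelial markers summed to 288 and 255 CPM in the KO libraries numbered 1 and to 344 and 392 CPM in those numbered 2. Stellate markers summed to 172.5 and 152 CPM in the libraries numbered 1 and to 199 and 216 CPM in those numbered 2. Cholangiocyte markers summed to 184 and 237 CPM in the libraries numbered 1 and to 398 and 388 CPM in those numbered 2. Most of that sum was Spp1 (mean 244.6 CPM in KO libraries with vehicle). The mean log2 CPM of the cholangiocyte markers tested differed less, at 4.117 and 4.171 in the libraries numbered 1 and 4.242 and 4.505 in those numbered 2. Their part in the order of the libraries was not tested. The coefficient of variation over 3 libraries had a median of 7.92% in KO cells with vehicle and 5.65% in WT cells with vehicle, over the 31 genes other than Stc2. In KO cells with vehicle it reached 38.8% for Aldh1l2 and was 0.12% for Atf4.

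Other genes of the pathway were then read in KO and WT cells with vehicle. Of 15 eIF2 kinases, eIF2 subunits and exchange factors, 10 were lower and 2 higher in KO cells, with a median log2 fold change of -0.18. That is 66.7% lower and 13.3% higher, beside 26.9% and 27.5% of all genes. Ppp1r15b, the constitutive eIF2 phosphatase subunit, fell by 0.66 ± 0.05 on the log2 scale, to 127 CPM in KO cells against 200.3 CPM in WT cells. The haem-sensing kinase Eif2ak1 (-0.45 ± 0.05) and the exchange factor subunit Eif2b2 (-0.57 ± 0.07) fell too. All 3 fell again with MJ041 (-0.75, -0.49 and -0.62).

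Of 20 cytosolic aminoacyl-tRNA synthetases, which load amino acids onto tRNA, 6 were lower and 3 higher in KO cells, with a median of -0.05. Sars1 for serine had 180.4 CPM in KO cells and 297 CPM in WT cells (-0.72 ± 0.06), Tars1 for threonine 187 CPM and 262 CPM in WT cells (-0.48 ± 0.05), and Rars1 for arginine 189 CPM and 248 CPM in WT cells (-0.39 ± 0.04). The other 11 did not pass, and the share called (9 of 20) was no higher than the 54.5% of all genes. With MJ041, 11 were lower and 1 was higher in KO cells, with a median of -0.16. That is 55% lower and 5% higher, beside 27.6% and 26.8% of all genes in that comparison. Sars1 again fell the most of the 3 named (-0.94 ± 0.06).

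Of 13 further genes reported as targets of ATF4 or CHOP, 6 were lower and 6 higher in KO cells, or 92.3% called beside 54.5% of all genes. Cth, the cystathionine gamma-lyase that makes cysteine, fell to 25.5 CPM in KO cells against 54.1 CPM in WT cells (-1.08 ± 0.09), and the autophagy receptor Sqstm1 to 1638 CPM in KO cells against 4042 CPM in WT cells (-1.30 ± 0.12). Gpt2, the mitochondrial alanine aminotransferase, rose to 169 CPM in KO cells against 72.5 CPM in WT cells (1.22 ± 0.10). This list thus held both directions, as the 32 did.

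Of 9 genes of cytosolic folate metabolism, glycine cleavage and serine breakdown, 5 were higher and 2 lower in KO cells, or 77.8% called beside 54.5% of all genes. Shmt1, the cytosolic counterpart of Shmt2, rose by 0.64 ± 0.08 on the log2 scale and Mthfd1, the cytosolic folate enzyme, by 0.38 ± 0.06. Aldh1l1, the cytosolic counterpart of Aldh1l2, fell to 102 CPM in KO cells against 192 CPM in WT cells (-0.92 ± 0.12). The 2 formyl-tetrahydrofolate dehydrogenases thus went in opposite directions, and did so again with MJ041 (-1.35 ± 0.12 for Aldh1l1). Of 8 other amino acid transporters, 2 were higher and 2 lower, a share near the 54.5% of all genes. Slc38a4, a hepatocyte carrier of neutral amino acids, rose to 394 CPM in KO cells against 185 CPM in WT cells (1.09 ± 0.05). Slc38a3, the glutamine carrier, fell (-1.38 ± 0.12), as did the arginine carrier Slc7a2 (-1.55 ± 0.23).

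**Figure D4:**
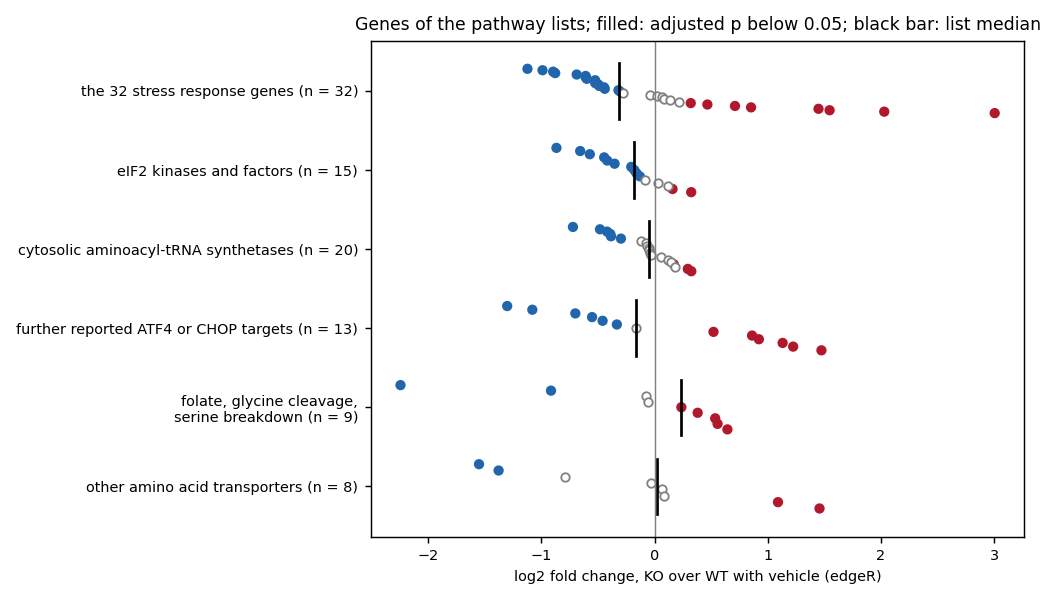
Log2 fold change of KO over WT cells with vehicle (x axis) for each gene of the 32 and of 5 further lists, red for genes called higher, blue for genes called lower and open for genes not called, with the median of each list as a black bar. The medians are -0.31 for the 32 genes, -0.18 for the eIF2 list and -0.05 for the synthetases.

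MJ041 was then set against vehicle within each genotype, to ask whether the compound acts on these genes and whether Hnf4a is needed. In WT cells 4 of the 32 genes were called, Chac1, Phgdh, Psat1 and Atf5, and all were higher with MJ041. Among all genes 2.21% were called, 1.19% as higher and 1.02% as lower. At an unadjusted p below 0.05 there were 16 of the 32, against 21.6% of all genes. The median of the 32 was 0.14, beside 0.03 over all genes. This comparison and the first genotype comparison share the WT vehicle libraries. The number of calls rests on few libraries: it was 0 with the WT groups alone in the fit, 0 with the level of stellate, Kupffer and endothelial markers as a covariate, and between 0 and 5 when single libraries were left out. The count was 0 without WT MJ041 library 2, WT vehicle library 1, KO MJ041 library 3, KO vehicle library 1 or KO vehicle library 3, and 1 without WT vehicle library 3. It was 2 without WT MJ041 library 1, KO MJ041 library 1, KO MJ041 library 2 or KO vehicle library 2. Over all genes the number called ran from 0 to 2059 in the same fits, the highest without WT MJ041 library 3. The fold changes themselves kept their sign, though those of Phgdh and Atf5 ranged more widely than those of Chac1 and Psat1. Over the 20 alternatives that of Chac1 lay between 0.71 and 0.94 on the log2 scale, that of Phgdh between 0.57 and 0.92, that of Psat1 between 0.26 and 0.33 and that of Atf5 between 0.14 and 0.45.

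Chac1 had 69.1, 82.4 and 72.0 CPM in WT libraries with MJ041, against 33.0, 43.7 and 47.5 CPM in WT libraries with vehicle, a log2 fold change of 0.85 ± 0.13 (adjusted p = 0.029). Phgdh had 17.5, 25.0 and 27.0 CPM with MJ041, against 14.9, 13.6 and 14.5 CPM with vehicle (0.69 ± 0.15; adjusted p = 0.042). In both genes every MJ041 library was above every vehicle library, and Phgdh library 1 with MJ041 was close to vehicle. Psat1 had 236, 252 and 236 CPM with MJ041, against 189.7, 202 and 192 CPM with vehicle (0.31 ± 0.06; adjusted p = 0.034), and Atf5 had 601, 624 and 490.4 CPM with MJ041, against 445, 472 and 423 CPM with vehicle (0.36 ± 0.08; adjusted p = 0.043). Neither overlapped, and Atf5 library 3 was the nearest to vehicle.

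Atf4 did not pass, at 351, 306 and 319.6 CPM with MJ041 and 309, 332 and 324 CPM with vehicle, and the groups overlapped (log2 fold change 0.02, 95% interval -0.10 to 0.14). Ddit3 did not pass either (-0.12 ± 0.26). Among the 7 serine and one-carbon genes, the 3 MJ041 libraries lay above the 3 vehicle libraries in each gene, though only Phgdh and Psat1 passed. Over the 32 genes such separation was seen in 15 as higher and 3 as lower, against 13.1% and 9.22% of all genes tested. Of the further lists, 2 of 15 eIF2 genes (Eif2s2 at 0.20 and Eif2ak2 at -0.27), 1 of 20 synthetases (Iars1 at 0.26), 1 of 13 further targets (Xpot at 0.38), 1 of 8 other transporters (Slc7a2 at -1.13) and 0 of 9 folate genes were called in WT cells, beside 2.21% of all genes. These 5 fall outside the naming rule and are named after their values were seen.

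Markers of other liver cells also differed between these libraries. The stellate markers summed to 95.2, 102.5 and 156 CPM in WT libraries with MJ041, against 179, 153 and 190.4 CPM in WT libraries with vehicle. The endothelial markers summed to 173, 182.5 and 305.5 CPM with MJ041, against 293, 264 and 419 CPM with vehicle, and the Kupffer markers to 186, 226 and 362 CPM, against 300.4, 244 and 494 CPM with vehicle. The hepatocyte markers, mostly albumin, summed to 74160, 65150 and 57320 CPM with MJ041, against 56020, 61540 and 56010 CPM with vehicle. Hnf4a had 166, 178 and 142 CPM with MJ041, against 121, 137 and 112 CPM with vehicle (0.39 ± 0.10 on the log2 scale). It did not pass in edgeR (adjusted p = 0.062). Among the MJ041 libraries, Atf5 was lowest in library 3 and Phgdh was highest there. MJ041 libraries 1 and 2 were the lowest in the stellate, endothelial and Kupffer lists. Without those libraries 0 of the 32 genes were called; the single MJ041 library left in WT cells is then taken to scatter as much as the libraries of the other groups do. The log2 fold changes were then 0.80 for Chac1, 0.92 for Phgdh, 0.28 for Psat1 and 0.14 for Atf5, and with the marker covariate 0.85, 0.81, 0.30 and 0.22 for the same genes. In the main fit they were 0.85, 0.69, 0.31 and 0.36 in the same order. Next to those, Chac1 and Psat1 were about the same, Phgdh was larger and Atf5 was smaller. The part of the other cells in these rises was not tested.

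In KO cells 0 of the 32 genes and 0 of all genes were called with MJ041 by edgeR, with 2 of the 32 (Mthfd2 and Asns, both lower) and 414 of all genes (2.77%) at an unadjusted p below 0.05. DESeq2 called 1 gene, which is not among the 32, and limma voom called 0. The median log2 fold change of the 32 was -0.04, beside 0.01 over all genes. Chac1 had 29.6, 22.3 and 27.1 CPM in KO libraries with MJ041, against 30.4, 25.5 and 30.4 CPM in KO libraries with vehicle, a log2 fold change of -0.13 with a 95% interval from -0.43 to 0.18. The groups overlapped. Psat1 had 131, 154 and 144 CPM with MJ041, against 161, 158 and 149 CPM with vehicle (-0.13, interval -0.26 to 0.01), Phgdh averaged 19.5 ± 1.47 CPM with MJ041 and 19.8 ± 3.01 CPM with vehicle (-0.02, interval -0.34 to 0.30), and Atf5 315 ± 9.13 CPM with MJ041 and 316 ± 7.32 CPM with vehicle (-0.01, interval -0.18 to 0.16).

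The difference between the responses in KO and WT cells was tested as the interaction of genotype and MJ041. No gene passed in edgeR, and the smallest adjusted p over all genes was 0.12, that of Chac1 and of Psat1 among others. The response in KO minus that in WT was -0.98 ± 0.19 on the log2 scale for Chac1 (95% interval -1.39 to -0.56) and -0.44 ± 0.09 for Psat1 (interval -0.62 to -0.25). It was -0.71 ± 0.21 for Phgdh and -0.36 ± 0.11 for Atf5 (adjusted p = 0.20 and 0.21). At an unadjusted p below 0.05 there were 12 of the 32 genes, all with the lower response in KO cells, against 13.3% of all genes. DESeq2 called 2 of the 32, Chac1 and Psat1, and limma voom called 0. Leaving out WT MJ041 library 3 gave 4 (Atf5, Chac1, Eif4ebp1 and Psat1), with 852 of all genes called in that fit, and DESeq2 called 218 of all genes.

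**Figure D5:**
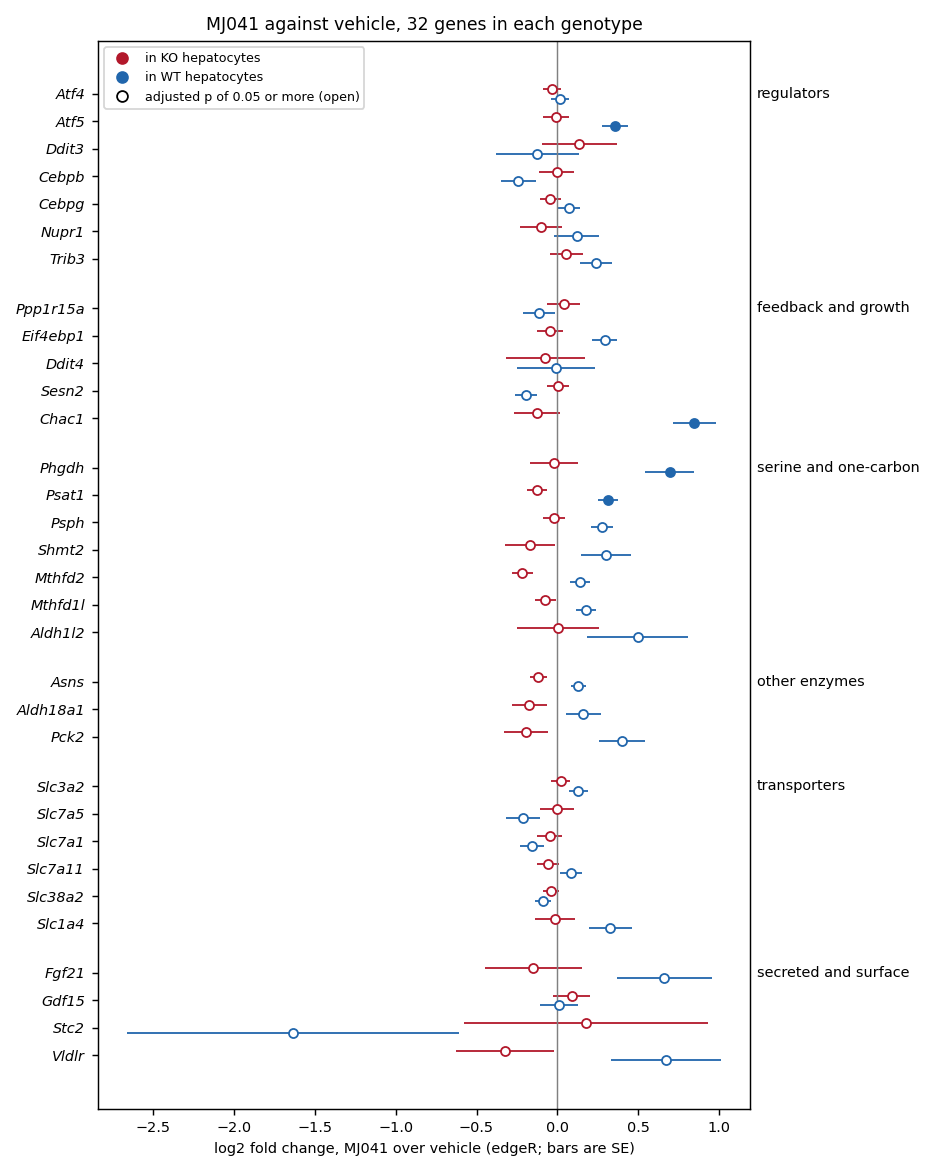
Log2 fold change of MJ041 over vehicle (x axis) for the 32 genes by role, in KO cells in red and in WT cells in blue, with SE as bars and filled points for an adjusted p below 0.05. The 4 filled points (Atf5, Chac1, Phgdh and Psat1) are all in WT cells and right of 0, and all red points are open.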

How the data were processed

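RNA was sequenced from 12 libraries on an Element AVITI instrument after TruSeq stranded preparation, per the labels' protocols. The authors deposited 1 table of unnormalized read counts, with a row for each Ensembl gene. Genome mm39, STAR 2.7.10b, Trimmomatic 0.34, featureCounts, FastQC and DESeq2 are listed in the submitters' processing notes. Strand and multimapping settings are not given in the sources used here. Symbols were found for 52081 of 55414 identifiers.

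The tests used edgeR 4.0.16 in R 4.3.3, with DESeq2 1.42.0 and limma 3.58.1 as alternatives. Genes were kept by filterByExpr (minimum count 10), scaled by TMM and fitted with edgeR's quasi-likelihood model, 1 coefficient per group over all 12 libraries. The SE was derived from the fold change and its F statistic, and the threshold was an adjusted p of 0.05 over 14919 genes. The fit was tested on simulated data. Replicates differed by more than sampling noise (lowest chi-square of a pair 4.39 for each degree of freedom).

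The 32 genes and the lists were chosen with earlier results of these data known. Values per library are given for Atf4, for genes called with MJ041, and for up to 3 genes of each role, those with the largest change among the called ones in KO against WT with vehicle; of other lists, the 3 smallest adjusted p. The promoters printed are the 5 of those genes with an element that had the smallest adjusted p.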

Additional observations from a re-analysis of the deposited data

How the results depend on the processing

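Over 20 alternatives (DESeq2 size factors, no filter on low counts, DESeq2, limma voom, a replicate block, the marker covariate, only the groups compared, each of 12 single libraries left out, and WT MJ041 libraries 1 and 2 left out together, the last chosen after seeing the data), 24 of the 25 genes called in KO against WT with vehicle and 19 of the 25 called with MJ041 were called each time, and all 25 kept their sign in both. The 4 rises with MJ041 in WT kept their sign in all 20 and 0 of the 4 were called in all 20. Leaving out single libraries gave between 24 and 25 called genes with vehicle, between 22 and 26 with MJ041, 0 for MJ041 in KO, between 0 and 5 for MJ041 in WT and between 0 and 4 for the interaction. For MJ041 in WT there were 0 without WT vehicle library 1, WT MJ041 library 2, KO vehicle library 1, KO vehicle library 3 or KO MJ041 library 3. The count in WT was 12 without the filter on low counts, 0 with the marker covariate, 0 with only the groups compared and 0 without WT MJ041 libraries 1 and 2. The interaction count was 9 without the filter, 2 with DESeq2 and 4 without WT MJ041 library 3. The cause of these shifts was not tested. How many of all genes were called without the filter is not given here. The counts of 12 and 9 are thus not shown as particular to the stress response genes. A fit with only the groups compared does not exist for the interaction, which needs all 4. With the replicate number as a block the counts were 25, 26, 5, 0 and 0 in the order vehicle genotype, MJ041 genotype, MJ041 in WT, MJ041 in KO and interaction. Same-numbered libraries were not taken as pairs. Only 6 of 18 such pairs had deviations correlated above 0.1, but most of the 18 join a KO with a WT library. The block was shared by both genotypes, and a pairing within each genotype was not fitted. Within KO cells the correlations were 0.349, 0.458 and 0.039 for numbers 1, 2 and 3, and within WT cells -0.010, 0.203 and 0.499. Of 36 differently numbered pairs 6 were above 0.1 too, and WT MJ041 library 1 reached 0.445 with WT vehicle library 2. The WT values thus do not single out equal numbers. In KO cells numbers 1 and 2 gave a hint of sharing. At this depth and with 3 libraries per group, changes of genes as scattered as Fgf21, Ddit4 or Stc2 were not detectable unless large.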
